A study of Homo sapiens with 8 samples.

Results

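COPII is the protein coat that forms transport vesicles on the endoplasmic reticulum (ER), and the data describe 10 genes of this export step in 2 multiple myeloma (MM) cell lines exposed to a statin. The genes were taken by name. They are SAR1A, SAR1B, SEC23A, SEC23B, SEC24A, SEC24B, SEC24C, SEC24D and SEC31A, which encode coat proteins, and CREB3L2, which encodes a transcription factor. All 10 were found among the 58219 genes listed in each file, 1 identifier each, and all 10 were among the 13129 protein-coding genes that passed the filter on low counts. The lines, H929 and KMS11, are established from MM and positive for t(4;14), and their RNA was taken 24 h after the addition of fluvastatin (2 µM), an inhibitor of HMG-CoA reductase, or of its solvent ethanol. There were 4 groups of line and treatment with 2 biological replicates each, 8 libraries in all. Each line is a single cell line, so differences between the lines cannot be told apart from other properties of those cultures, and no line without t(4;14) was analysed here.

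Newly made secretory proteins leave the ER in COPII vesicles. The exchange factor PREB loads the small GTPase SAR1 with GTP, SAR1 recruits the inner coat of SEC23 and SEC24, and SEC24 binds the cargo. SEC13 and SEC31 then form the outer cage. Plasma cells, from which MM arises, secrete large amounts of immunoglobulin and depend on this route. CREB3L2 is held in the ER membrane until it is cleaved by the Golgi proteases encoded by MBTPS1 and MBTPS2, and in cartilage it is known to activate SEC23A.

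The libraries held 26702515 to 41910446 expected counts, and protein-coding genes took 85.18 to 91.35% of them. KMS11 fluvastatin replicate 1 held 88.06% against 90.85 to 91.35% in the other KMS11 libraries. In each group the replicates differed by more than counting error. It was this spread that limited the precision for these genes, which had 1372 to 6959 counts in every library. The spread was uneven between the groups. Its chi square, divided by the degrees of freedom, was 37.8 in KMS11 fluvastatin libraries and 9.97 in KMS11 ethanol libraries. In H929 it was 18.1 in ethanol libraries and 15.6 in fluvastatin libraries. Of 10 plasma cell markers, 10 reached 1 TPM in H929 and 9 in KMS11, where CD38 was near 0. The summed level of these markers was 6180.3 to 7208.7 TPM in H929 ethanol libraries and 6985.2 to 7987.0 in H929 fluvastatin libraries, with 6428.1 to 6917.2 and 4601.0 to 5719.6 in KMS11, and most of it was JCHAIN. Mean levels of 6 of the 10 were lower after fluvastatin in H929. SDC1 went from 110 to 52.6 TPM, MZB1 from 241 to 111, SLAMF7 from 91.4 to 44.9, XBP1 from 938 to 739.6, POU2AF1 from 21.6 to 16.6 and IRF4 from 193 to 189.9. The means of JCHAIN (4606.2 to 5762.8 TPM), TNFRSF17 (414 to 474), PRDM1 (55.6 to 67.9) and CD38 (22.6 to 25.9) were higher. In KMS11 the means were lower after fluvastatin for all of the 10 but SDC1 (41.9 to 43.0) and CD38 (0.025 to 0.03). JCHAIN went there from 5740.6 to 4451.4 TPM. The 4 T cell markers summed to 1.57 to 1.64 TPM in H929 ethanol libraries and 3.42 to 4.25 in H929 fluvastatin libraries, most of it CD3E, and to at most 0.46 TPM in KMS11. CD3G had a mean of 0.05 TPM in H929 ethanol libraries and 0.53 after fluvastatin. The part of the plasma cell and T cell markers in the H929 results below was not tested. Monocyte, fibroblast and erythroid markers summed to less than 1 TPM in every library. In bulk RNA, fewer cells of a kind and less RNA per cell cannot be told apart.

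Promoters are shown because CREB3L2 and related factors bind sites built on the letters TGACGT. RefSeq (GRCh38.p14) gave windows around annotated start sites for 9 of the 10 genes, 14 windows in all. TGACGT, read on both strands, was in a window of 6 of these 9 genes (SEC24A, CREB3L2, SAR1A, SEC24C, SEC23A and SEC23B), and in 9.64% of the 27305 genes with such windows. By window the numbers were 6 of 14 and 7.98% of 35116. In the sequences below, each 100 bases long and written 5′ to 3′ on the gene's strand, capitals mark TGACGT and, where present, its extension to TGACGTCA (the cyclic AMP response element) or TGACGTGG (an unfolded protein response element).

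CREB3L2, chr7:138002187-138002286, minus strand: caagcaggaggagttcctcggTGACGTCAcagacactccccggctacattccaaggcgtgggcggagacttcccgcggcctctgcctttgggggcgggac

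SEC23A, chr14:39103232-39103331, minus strand: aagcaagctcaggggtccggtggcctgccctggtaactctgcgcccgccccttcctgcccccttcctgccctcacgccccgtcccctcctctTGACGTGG

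SEC24A, chr5:134648585-134648684, plus strand: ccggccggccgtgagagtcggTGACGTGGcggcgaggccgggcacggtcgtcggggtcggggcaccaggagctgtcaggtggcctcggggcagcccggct

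SAR1A, chr10:70170511-70170610, minus strand: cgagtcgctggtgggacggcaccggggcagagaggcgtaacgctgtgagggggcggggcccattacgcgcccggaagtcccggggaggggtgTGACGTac

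The full TGACGTCA was in 1 member window, that of CREB3L2, and in 1.85% of all windows. TGACGTGG was in 2 member windows, those of SEC24A and SEC23A, and in 0.729% of all windows. Both contain TGACGT, so the 3 counts are not separate. TGATGNAA, the form that ATF4 binds, was in 1 member window, at a second CREB3L2 start, and in 3.62% of all windows. CCAAT placed 9 bases before CCACG was in none of the member windows and in 0.0769% of all. A match describes letters in a window and not a bound site. It is set beside the values below without a test, and members with the motif were found both among those that rose in H929 (CREB3L2 and SEC23A) and among those that did not pass the test there (SAR1A, SEC23B, SEC24A and SEC24C). SEC31A and SEC24B, which also rose in H929, had windows without TGACGT, and SEC24D had no window.

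In H929, 4 of the 10 genes rose with fluvastatin and 0 fell. CREB3L2 rose 1.78-fold, SEC23A 1.44-fold, SEC31A 1.32-fold and SEC24B 1.27-fold. The share, 4 of 10, lay near that of all tested genes, of which 42% were called in H929 (22.7% higher and 19.3% lower). The median log2 fold change of the 10 genes was 0.03, beside 0.02 over all tested genes, and 5 of the 10 values were positive. In KMS11, 0 of the 10 passed the test in either direction, where 3.12% of all genes did (2.58% higher and 0.533% lower) and the median of the 10 was -0.01. The tests used rounded expected counts in the quasi-likelihood F test of edgeR, adjusted by Benjamini-Hochberg over all 13129 genes, and a threshold of 0.05, and every adjusted p below comes from it. With 10 genes and 2 libraries per group, a share near the background is not a result about COPII. The spread between replicates was widest in the KMS11 fluvastatin group, but the fit shared the spread of each gene over all 4 groups. The standard errors were therefore alike in the lines, as for CREB3L2 (0.13 in each) and SEC31A (0.09 in each). With 2 libraries per group, 0 calls in KMS11 do not show an absence of response. In KMS11 edgeR's unadjusted p was under 0.05 for 1 member, CREB3L2, and for 2874 of all genes. DESeq2 also called 0 members there.

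**Figure D1:**
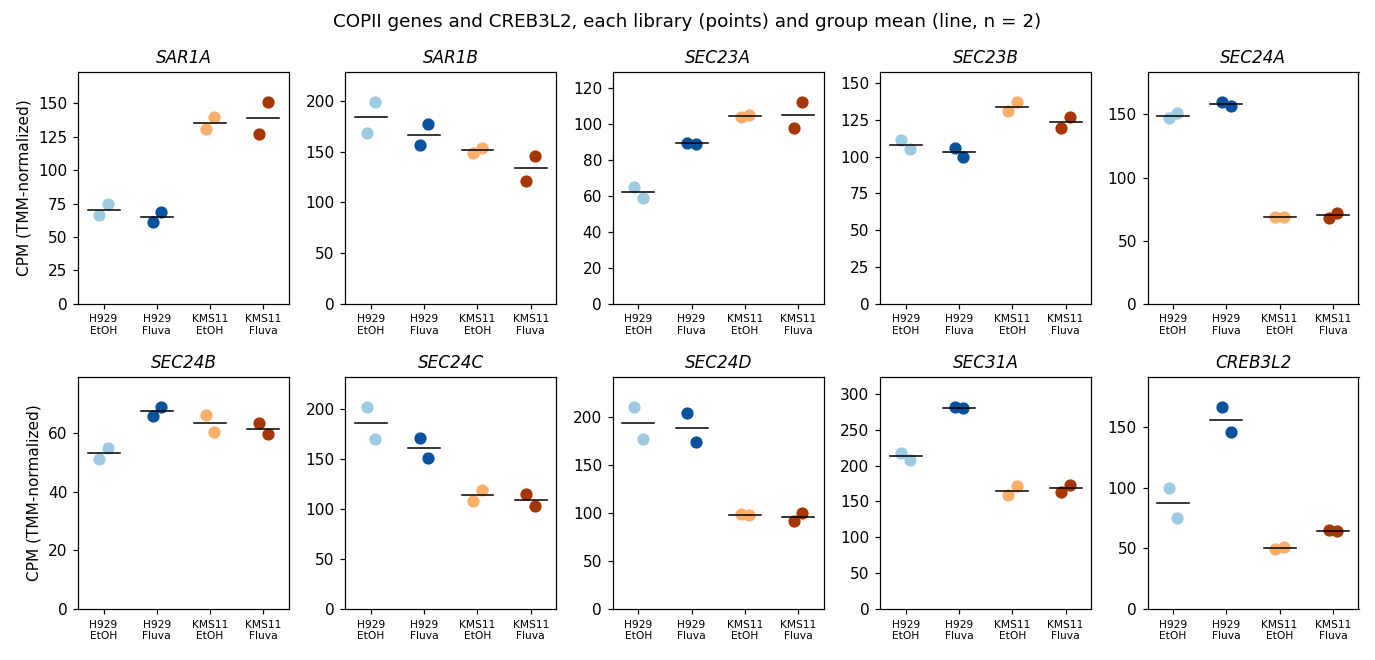
CPM (counts normalized by TMM to a common library size, linear axes from 0) of the 9 coat genes and CREB3L2 in H929 and KMS11 after ethanol (EtOH) or fluvastatin (Fluva), with 1 point per library and a line at the group mean (n = 2). In H929 the fluvastatin points of SEC23A, SEC24B, SEC31A and CREB3L2 lie above both ethanol points, and the KMS11 points of the same genes overlap except for CREB3L2.

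CREB3L2, the ER-bound transcription factor, changed the most of the 10. Its level was 99.9 and 75.1 CPM (counts normalized by TMM to a common library size) in the H929 ethanol libraries and 166 and 146 CPM in the fluvastatin libraries. In KMS11 it was 49.4 and 51.1 CPM in ethanol and 64.9 and 64.1 CPM in fluvastatin. In both lines the fluvastatin libraries lay above the ethanol libraries without overlap, and the 2 ethanol libraries of H929 stood further apart than those of KMS11. The log2 fold change was 0.83 in H929 (standard error, SE, 0.13, adjusted p = 0.00075 in edgeR's test) and 0.36 in KMS11 (SE 0.13, adjusted p = 0.16). The difference between the responses, taken as KMS11 minus H929, was -0.47 (SE 0.18, adjusted p = 0.089 in edgeR's test) and did not pass. It passed in 6 of 20 alternatives, among them DESeq2 (-0.52, adjusted p = 0.04), GC offsets (-0.64, adjusted p = 0.0044) and the fit without H929 ethanol replicate 1 (-0.69, adjusted p = 0.023).

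With both lines in 1 fit and the cell line as a term, CREB3L2 rose by 0.60 on the log2 scale (SE 0.13, adjusted p = 0.029 in edgeR's test). It was 1 of 10 members called, all higher, where 10.4% of all genes were called, 6.5% higher and 3.93% lower. This call was lost without any 1 of the H929 libraries. The log2 fold change was then 0.63 (adjusted p = 0.068) without ethanol replicate 1, 0.47 (0.078) without ethanol replicate 2, 0.51 (0.099) without fluvastatin replicate 1 and 0.59 (0.068) without fluvastatin replicate 2. The call within H929 was kept without each of the 8 libraries in turn.

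SEC23A and SEC23B encode the 2 forms of the inner coat protein that activates SAR1's GTPase. SEC23A was 64.9 and 58.8 CPM in H929 ethanol libraries and 89.5 and 88.9 CPM after fluvastatin. In KMS11 it was already at 104 and 105 CPM in ethanol, with 97.9 and 112 CPM after fluvastatin. The H929 fluvastatin libraries lay above both H929 ethanol libraries and below every KMS11 library, and the KMS11 treatments overlapped. The log2 fold change was 0.53 in H929 (SE 0.10, adjusted p = 0.0020 in edgeR's test) and 0.00 in KMS11 (SE 0.10, adjusted p = 1.0).

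The difference of these SEC23A responses was -0.52 (SE 0.14, adjusted p = 0.023 in edgeR's test). SEC23A was 1 of 10 members called for a difference between the lines, with 0 higher and 1 lower in KMS11, where 23.2% of all genes were called, 11.7% higher and 11.5% lower. The difference fell short of the threshold without any of 6 of the 8 libraries. Its adjusted p was 0.084 without H929 ethanol replicate 2, 0.054 and 0.066 on leaving out H929 fluvastatin replicates 1 and 2, 0.10 on leaving out either KMS11 ethanol library and 0.060 on leaving out KMS11 fluvastatin replicate 1. The size stayed between -0.63 and -0.42 on leaving out a library. SEC23B showed no such response. It was 111 and 105 CPM in H929 ethanol libraries and 106 and 99.8 CPM after fluvastatin, which overlap, with a log2 fold change of -0.07 (SE 0.09, adjusted p = 0.58). In KMS11 SEC23B was 131 and 137 CPM in ethanol and 119.7 and 127 CPM in fluvastatin, without overlap, and the log2 fold change of -0.12 did not pass (adjusted p = 0.46).

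SEC31A encodes the long subunit of the outer cage. In H929 it was 218 and 208 CPM in ethanol and 281 and 280.3 CPM in fluvastatin. In KMS11 it was 159 and 171 CPM in ethanol and 163 and 173 CPM in fluvastatin. The H929 groups were separate and the KMS11 groups overlapped. The log2 fold change was 0.40 in H929 (SE 0.09, adjusted p = 0.0049 in edgeR's test) and 0.02 in KMS11 (SE 0.09, adjusted p = 0.90). The difference, -0.37, had an adjusted p of 0.054 and passed only without KMS11 fluvastatin replicate 2 (-0.43, adjusted p = 0.041) among the fits that left out a library. SEC31A shares exon sequence on the same strand with THAP9-AS1, a long noncoding RNA that had 734.61 to 1278.34 counts per library, so a part of its counts may have been divided between the 2 genes.

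The SEC24 genes encode the cargo-binding subunit in 4 forms, of which SEC24A and SEC24B are alike and SEC24C and SEC24D are alike. SEC24B was 51.3 and 54.9 CPM in H929 ethanol libraries and 66.0 and 68.8 CPM after fluvastatin. In KMS11 it was 66.3 and 60.4 CPM in ethanol and 63.3 and 59.6 CPM after fluvastatin. It rose in H929 without overlap of the libraries, while the KMS11 libraries overlapped, with log2 fold changes of 0.35 (SE 0.10, adjusted p = 0.016 in edgeR's test) and -0.04 (adjusted p = 0.82). The H929 call was lost without H929 ethanol replicate 1 (0.29, adjusted p = 0.11), H929 fluvastatin replicate 2 (0.31, adjusted p = 0.097) or either KMS11 ethanol library (0.31, adjusted p = 0.056 for each). The difference between the responses, -0.39, did not pass (adjusted p = 0.063).

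The other SEC24 genes did not pass the test in either line. SEC24A was 147 and 151 CPM in H929 ethanol libraries and 159.8 and 157 CPM in fluvastatin, separate groups but a log2 fold change of 0.09 (SE 0.08, adjusted p = 0.43 in edgeR's test). SEC24C was 202 and 170.4 CPM in ethanol and 171 and 151 CPM in fluvastatin, which overlap (log2 fold change -0.21, SE 0.12, adjusted p = 0.18). SEC24D was 210.1 and 177 CPM in ethanol and 204 and 174 CPM in fluvastatin, with a log2 fold change of -0.04 (adjusted p = 0.83). In KMS11 the 3 log2 fold changes lay between -0.06 and 0.02, with standard errors of 0.08 to 0.12.

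SAR1A and SAR1B encode the 2 forms of the GTPase that starts coat assembly. Neither passed the test with fluvastatin. SAR1A was 66.4 and 74.5 CPM in H929 ethanol libraries and 61.2 and 68.4 CPM in fluvastatin, and 131 and 139.7 CPM against 127 and 151 CPM in KMS11. The groups overlapped in both lines, with values of -0.12 in H929 (adjusted p = 0.43 in edgeR's test) and 0.04 in KMS11 (adjusted p = 0.87). SAR1B was 169 and 199 CPM in H929 ethanol libraries and 157 and 177 CPM in fluvastatin, and 149 and 154 CPM against 121 and 146 CPM in KMS11. It overlapped in H929 and was lower without overlap in KMS11, with log2 fold changes that did not pass, -0.14 (adjusted p = 0.39) and -0.18 (adjusted p = 0.40). When a trend with GC content was removed from each library, both genes passed as lower in H929, SAR1A at -0.19 (adjusted p = 0.039) and SAR1B at -0.21 (adjusted p = 0.029). In that fit 54.8% of all genes were called in H929, so these 2 calls are not particular to SAR1. SAR1B and SEC24A lie on opposite strands of chromosome 5 (134601149 to 134649271 and 134648785 to 134727909 in GRCh38) and their exons overlap. The library kit marks strand, but whether the counting used it is not given in the sources used here.

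Counting libraries without a test, the fluvastatin libraries lay wholly above the ethanol libraries for 5 of the 10 genes in H929 and wholly below for 0, where 37.5% of all genes lay above and 33.5% below. In KMS11, 1 gene lay above (CREB3L2) and 2 below (SAR1B and SEC23B), where the shares of all genes were 26.9% and 26.5%.

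**Figure D2:**
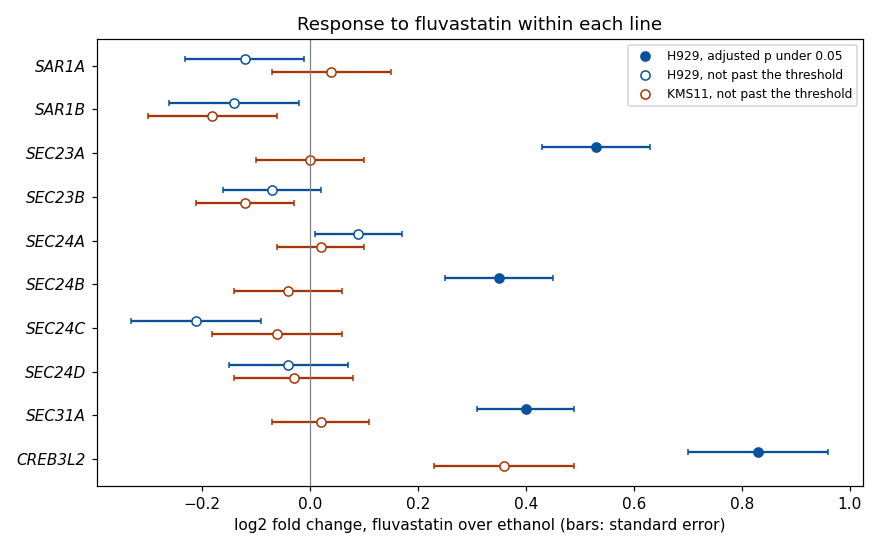
Log2 fold change of fluvastatin over ethanol for each of the 10 genes in H929 (blue) and KMS11 (orange-brown), with bars for the standard error and filled points for an adjusted p under 0.05 in edgeR's test. Filled points are seen at SEC23A (0.53), SEC24B (0.35), SEC31A (0.40) and CREB3L2 (0.83) in H929, and every KMS11 point is open.

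More of the genes differed between the lines than with treatment. In ethanol, 9 of the 10 genes differed between KMS11 and H929, 4 higher and 5 lower in KMS11. Of all tested genes 72% did, 35.6% higher and 36.4% lower, so that a difference between the lines was common and is not particular to these genes. SAR1A was 1.93-fold higher in KMS11 (log2 fold change 0.95, SE 0.11, adjusted p = 4e-05 in edgeR's test) and SEC23A 1.69-fold higher (0.76, SE 0.10, adjusted p = 6.6e-05). SEC23B (0.31, adjusted p = 0.0093) and SEC24B (0.26, adjusted p = 0.034) were higher by less. SEC24A was lower in KMS11 by the widest margin, at -1.11 (SE 0.08, adjusted p = 1.5e-06). SEC24D (-0.98, adjusted p = 3.2e-05), CREB3L2 (-0.80, adjusted p = 0.00034), SEC24C (-0.71, adjusted p = 0.00034) and SEC31A (-0.37, adjusted p = 0.0035) were also lower. SAR1B, at -0.28, did not pass (adjusted p = 0.061).

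Several of these smaller differences rested on single libraries. SEC24B fell short of the threshold without any 1 of the 4 H929 libraries or either KMS11 ethanol library, with log2 fold changes of 0.20 to 0.33 and adjusted p of 0.051 to 0.23 in edgeR's test. SEC23B fell short without H929 ethanol replicate 2 (0.28, adjusted p = 0.065) or KMS11 ethanol replicate 2 (0.29, adjusted p = 0.072), and SEC31A without KMS11 ethanol replicate 1 (-0.30, adjusted p = 0.067). SAR1B passed without H929 ethanol replicate 1 (-0.39, adjusted p = 0.035), KMS11 fluvastatin replicate 1 (-0.29, adjusted p = 0.030) or KMS11 fluvastatin replicate 2 (-0.27, adjusted p = 0.040). The sign also depended on the scale for SEC31A, which was 0.11 higher in KMS11 on the log2(TPM + 1) scale, and for SEC24B, which was -0.02 after removal of the GC trend. On the log2(TPM + 1) scale the median of all genes in this comparison was itself 0.31, against -0.02 on the count scale, so that SEC31A lay below the median on both. SEC31A, CREB3L2 and SEC24C did not pass on that scale (adjusted p = 0.4, 0.12 and 0.2 in limma's test). There 6 of the 10 genes were called, 4 higher and 2 lower in KMS11, beside 69.5% of all genes.

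Per length, in TPM, the genes could be ordered within each group. In H929 ethanol libraries the order was SAR1B (39.6 ± 3.63 TPM, SD, n = 2), SEC31A (36.2 ± 2.89), SEC24D (27.6 ± 2.86), SEC24C (21.9 ± 2.65), SEC23B (17.6 ± 1.19), SAR1A (13.6 ± 0.283), SEC24A (13.1 ± 0.0212), SEC23A (10.5 ± 0.247), CREB3L2 (6.97 ± 1.70) and SEC24B (5.83 ± 0.233). SAR1B and SEC31A overlapped, as did CREB3L2 and SEC24B, and the other neighbours were separate. After fluvastatin SEC31A, at 49.4 ± 0.290 TPM, stood above SAR1B at 33.4 ± 2.33 without overlap, and CREB3L2 (13.3 ± 0.00707) reached the range of SEC23A (13.5 ± 1.63), above SAR1A (11.9 ± 1.62) and SEC24B (7.31 ± 0.325).

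In KMS11 ethanol libraries SAR1B (40.2 ± 1.63 TPM, SD, n = 2) and SEC31A (39.1 ± 0.643) again led and overlapped. SAR1A (33.0 ± 0.276), SEC23B (30.7 ± 0.898) and SEC23A (22.9 ± 0.297) followed, then SEC24D (19.8 ± 1.05) and SEC24C (19.1 ± 0.304), which overlapped, SEC24B (9.82 ± 1.10) and SEC24A (8.60 ± 1.06), which overlapped, and CREB3L2 (5.39 ± 0.375). After fluvastatin the first 5 were SEC31A, SAR1A, SAR1B, SEC23B and SEC23A, at 36.7 to 23.6 TPM, each overlapping the next. TPM depends on the mean transcript length that RSEM estimated in each library. For CREB3L2 this was 5371 to 6207 bases in H929 and 6259 to 6748 in KMS11, and for SAR1A 2444 to 2819 and 2877 to 2936. A longer estimate lowers TPM at the same count, so the lengths of both genes lowered their KMS11 values. For SAR1A this ran against the difference, since its TPM was higher in KMS11. The log2(TPM + 1) scale itself lay higher in KMS11, by a median of 0.31 over all genes.

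The balance within each pair of alike genes was read from TPM. SEC23A made up 37.4% ± 1.03 of the SEC23 total in H929 ethanol libraries and 45.2% ± 1.44 in fluvastatin libraries (SD, n = 2), and 42.7% ± 1.03 and 47.8% ± 0.612 in KMS11. The log2 ratio of SEC23A to SEC23B was -0.79 and -0.70 in H929 ethanol libraries against -0.22 and -0.34 in fluvastatin, and -0.47 and -0.38 in KMS11 ethanol libraries against -0.15 and -0.10. In both lines every fluvastatin library had a higher ratio than both ethanol libraries. The mean change was 0.38 (two-sided exact permutation test within lines, p = 0.056, the smallest of 36 arrangements, so that this design cannot reach 0.05), 0.46 in H929 and 0.30 in KMS11. In KMS11 the difference between the log2 fold changes of the counts was smaller, since SEC23A had 0.00 and SEC23B -0.12, and the estimated length of SEC23A there was shorter in the fluvastatin libraries (2795.05 and 2959.73 bases) than in the ethanol libraries (3370.07 and 3108.34). In H929 the log2 fold changes of the counts were 0.53 for SEC23A and -0.07 for SEC23B, a wider gap than in TPM. The mean change on counts without length was 0.36 over both lines, which does not show these opposite shifts. After removal of the GC trend, an alternative chosen after seeing the data, it was 0.33.

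SAR1A made up 25.6% ± 2.14 of the SAR1 total in H929 ethanol libraries and 26.2% ± 1.3 in fluvastatin (SD, n = 2), and 45.1% ± 0.794 and 50.3% ± 0.380 in KMS11. The log2 ratio changed by 0.17 on average, 0.04 in H929 and 0.30 in KMS11 (exact permutation test, p = 0.167). SEC24D had the largest mean share of the SEC24 genes in every group, though SEC24C overlapped it in KMS11, with 40.3% ± 1.05 and 40.0% ± 1.60 of the SEC24 total in H929 and 34.5% ± 0.0874 and 35.5% ± 3.58 in KMS11. SEC24B made up 8.55% ± 1 and 11.2% ± 1.06 in H929 and 17.1% ± 1.04 and 17.3% ± 0.650 in KMS11. The ratio of SEC24A and SEC24B to SEC24C and SEC24D changed by 0.15 (exact permutation test, p = 0.222), 0.29 in H929 and 0.02 in KMS11. These were 3 ratios in 1 family of tests, and none could pass an adjusted threshold.

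**Figure D3:**
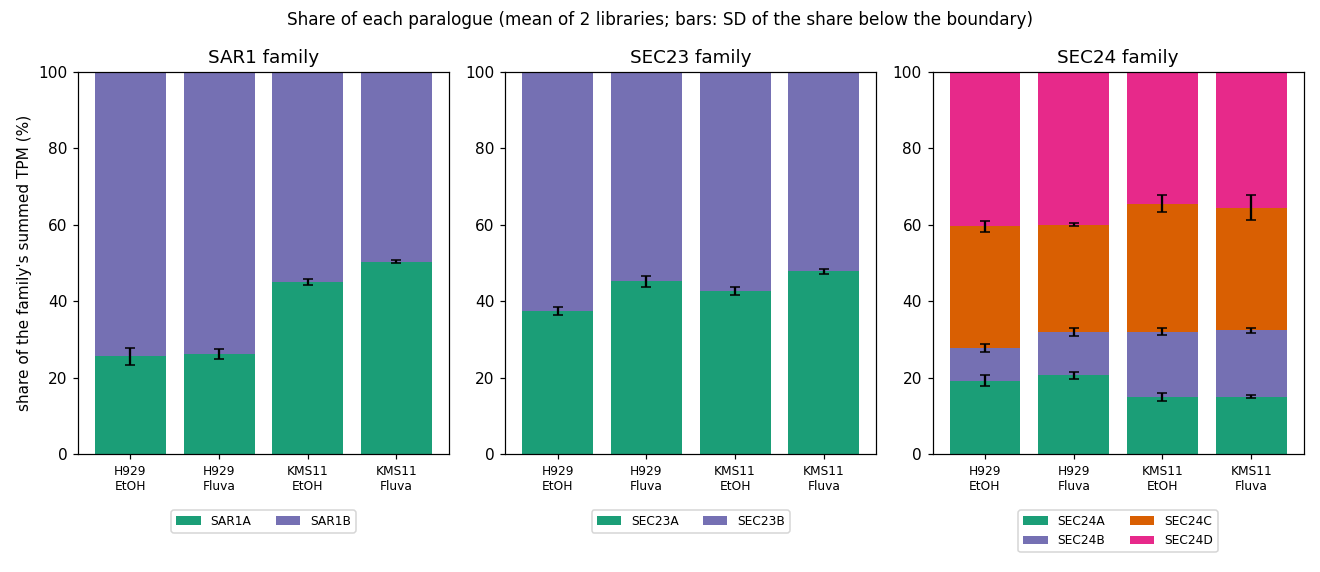
Share of each gene in the summed TPM of its family (bars from 0 to 100%), as the mean of 2 libraries per group, with error bars for the SD of the share that ends at that boundary. The SEC23A share is larger after fluvastatin in both lines (37.4 to 45.2% in H929, 42.7 to 47.8% in KMS11), and the SAR1A share differs mainly between the lines (25.6% against 45.1% in ethanol).

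Genes that act with the coat were divided in H929. Of 15 COPII partners, 3 rose, 2 fell and 10 did not pass, a share of 33.3% beside 42% of all genes. MIA2 and MIA3 encode membrane proteins at ER exit sites that help to load large cargo such as collagen and lipoproteins. MIA2 was 44.5 and 44 CPM in H929 ethanol libraries and 93.2 and 91.2 CPM in fluvastatin, with 64.8 and 62.4 CPM against 55.0 and 63.8 CPM in KMS11. The H929 groups were far apart and the KMS11 groups overlapped, with log2 fold changes of 1.06 (SE 0.10, adjusted p = 4.2e-05 in edgeR's test) and -0.10 (adjusted p = 0.57).

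MIA3 rose by 0.29 in H929 (adjusted p = 0.033 in edgeR's test), and KLHL12, the adaptor for ubiquitination of SEC31, by 0.30 (adjusted p = 0.023). PREB, the exchange factor for SAR1, was 202 and 171 CPM in H929 ethanol libraries and 126 and 100 CPM in fluvastatin, which is a log2 fold change of -0.72 (SE 0.14, adjusted p = 0.0028). In KMS11 PREB was 82.6 and 91.5 CPM in ethanol and 97.5 and 79.9 CPM in fluvastatin (0.03, adjusted p = 0.95). SEC13, the partner of SEC31A in the outer cage, was 146 and 135 CPM in H929 ethanol libraries and 121 and 102 CPM in fluvastatin (-0.33, adjusted p = 0.033), and 0.04 in KMS11 (adjusted p = 0.85). The H929 libraries of PREB and of SEC13 were thus lower after fluvastatin without overlap, the opposite direction to SEC31A. The calls for MIA3, KLHL12 and SEC13 were each lost without H929 ethanol replicate 1, H929 ethanol replicate 2 or H929 fluvastatin replicate 2, with edgeR's adjusted p between 0.063 and 0.25. KLHL12 was also lost without H929 fluvastatin replicate 1, and KLHL12 and MIA3 without either KMS11 ethanol library.

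The remaining 10 partners did not pass in H929. They were the exit site scaffolds SEC16A (-0.09), SEC16B (0.63) and TFG (0.04), the SEC31 paralogue SEC31B (0.39), the SEC23 partner SEC23IP (-0.22), the ubiquitin ligase scaffold CUL3 (0.15), the calcium-binding adaptors PDCD6 (0.13) and PEF1 (0.01), and the p24 cargo proteins TMED2 (-0.19) and TMED10 (-0.10). SEC31B stayed at or below 1.3 CPM in every library. In KMS11, 0 of the 15 partners passed in edgeR's test, where 3.12% of all genes did, and the log2 fold changes ran from -0.28 (PDCD6) to 0.32 (SEC16A). Between the lines in ethanol 7 partners were higher and 3 lower in KMS11, with PDCD6 (2.01) and KLHL12 (1.71) highest and SEC16B (-3.59) lowest. The share of partners called was 66.7%, beside 72% of all genes (35.6% higher and 36.4% lower).

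The wider early secretory pathway was read from 5 further lists. With the partners, the 6 lists held 124 genes, of which 122 were tested. In H929, 22 rose and 30 fell, 42.6% of those tested, against 42% of all genes, with 18% higher and 24.6% lower. In KMS11 1 gene passed, 0.82% beside 3.12% of all genes. It was XBP1, the transcription factor that drives the plasma cell secretory program, which fell by 0.40 on the log2 scale (SE 0.08, adjusted p = 0.035 in edgeR's test). This call was lost without 6 of the 8 libraries. The adjusted p in edgeR's test was 0.2 and 0.29 without KMS11 ethanol replicates 1 and 2, 0.11 without KMS11 fluvastatin replicate 1, 0.058 and 0.057 without H929 ethanol replicates 1 and 2, and 0.052 without H929 fluvastatin replicate 2. The value then lay between -0.47 and -0.37. With both lines in 1 fit, 2 of the 122 rose and 6 fell, 6.56% beside 10.4% of all genes.

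Genes for translocation into the ER lay mostly lower in H929. Of 24, 11 fell, 1 rose and 12 did not pass. The share called was 50% beside 42% of all genes, and the share lower was 45.8% beside 19.3%. The median log2 fold change was -0.34, beside 0.02 for all genes, and 20 of the 24 values were negative, beside 6224 of all 13129. In KMS11 0 passed, where 3.12% of all genes did. The median there was -0.15, beside 0.0044 for all genes, and 22 of 24 values were negative, beside 6310 of all 13129. SSR1, of the translocon-associated complex, and SEC61A1, the channel, fell most in H929, by 0.52 (adjusted p = 0.0046 in edgeR's test) and 0.51 (adjusted p = 0.0030). SPCS1, a subunit of the signal peptidase, rose by 0.44 (adjusted p = 0.0093), which was lost without H929 fluvastatin replicate 2 (0.36, adjusted p = 0.071).

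Of 26 cargo receptors and p24 proteins, 4 rose and 8 fell in H929, 46.2% beside 42% of all genes, with a median of -0.10. ERGIC1, of the ER-Golgi intermediate compartment, fell by 0.99 (SE 0.13, adjusted p = 0.00023 in edgeR's test), and LMAN1, the lectin that carries glycoproteins out of the ER, fell by 0.58 (adjusted p = 0.0016). CNIH4, a cargo adaptor, rose by 0.60 (adjusted p = 0.0018). LMAN1L also passed as higher, but had 1 to 2 counts in the H929 ethanol libraries and 9.17 to 9.42 after fluvastatin, so no fold is given, and its call was lost without either H929 ethanol library.

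Of 34 ER-Golgi SNAREs and tethers, 7 rose and 5 fell in H929, 35.3% beside 42% of all genes, with a median of 0.08. BLZF1 (0.67, adjusted p = 0.00092 in edgeR's test) and the TRAPP subunit TRAPPC6B (0.67, adjusted p = 0.0051) rose most, and the TRAPP subunit TRAPPC2L (-0.72, adjusted p = 0.00095) and the Golgi stacking protein GORASP1 (-0.66, adjusted p = 0.0040) fell most. The COPI coat, which returns vesicles to the ER, had 4 genes higher and 2 lower of 15, 40% beside the same 42%, with a median of -0.02. COPG2 rose by 0.41 (adjusted p = 0.016), COPZ2, at 22 to 42 counts in H929, by 1.09 (adjusted p = 0.023), and COPZ1 and ARF1 fell by 0.31 (adjusted p = 0.015) and 0.30 (adjusted p = 0.049). Each of the calls for COPG2, COPZ2, COPZ1 and ARF1 was lost without either H929 ethanol library or without H929 fluvastatin replicate 2. This does not cover the COPI genes called higher with smaller log2 fold changes, which the rule did not name. ARF1, COPZ1 and COPZ2 also lost theirs without H929 fluvastatin replicate 1, and ARF1 and COPG2 without either KMS11 ethanol library. The adjusted p in edgeR's test was then 0.054 to 0.24.

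The last list held CREB3L2's relatives, the membrane-bound activators ATF6 and ATF6B, the proteases MBTPS1 and MBTPS2, ERN1 and XBP1. In H929, 3 of its 8 tested genes rose and 2 fell, 62.5% beside 42% of all genes, with a median of 0.29. Of CREB3L2's relatives and the ATF6 genes, only CREB3L4 was called, so the share is not one of membrane-bound activators. CREB3L1 and CREB3L3 did not pass the filter on low counts. ERN1, the ER stress sensor that splices XBP1, rose by 1.11 (SE 0.11, adjusted p = 4.4e-05 in edgeR's test), from 190 to 410 CPM where KMS11 had 34.2 and 43.2 CPM. CREB3L4 rose by 0.48 (adjusted p = 0.014). MBTPS2 rose by 0.50 (adjusted p = 0.024) while MBTPS1, the other of the proteases that release CREB3L2, fell by 0.31 (adjusted p = 0.014), and XBP1 fell by 0.34 (adjusted p = 0.0083). MBTPS1 lost its call without H929 ethanol replicate 2 or either H929 fluvastatin library (adjusted p 0.055 to 0.089 in edgeR's test), MBTPS2 without H929 ethanol replicate 1, H929 fluvastatin replicate 2 or either KMS11 ethanol library (0.062 to 0.22), and XBP1 without H929 fluvastatin replicate 2 (0.058). CREB3 (0.26), ATF6 (0.09) and ATF6B (0.32) did not pass.

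**Figure D4:**
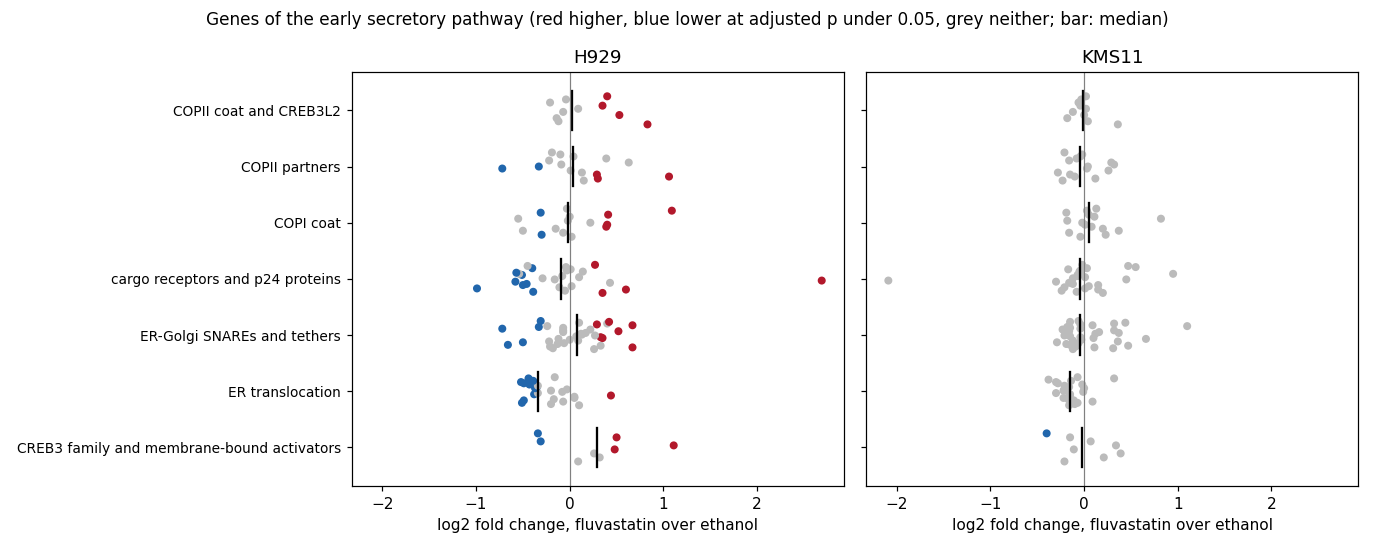
Log2 fold change of fluvastatin over ethanol in H929 and in KMS11 for the COPII coat genes with CREB3L2 and for the 6 lists, with 1 point per tested gene, red higher and blue lower at an adjusted p under 0.05 in edgeR's test, grey neither, and a bar at the median. The ER translocation genes in H929 lie mostly left of 0 (median -0.34), while the median of the COPII coat genes and CREB3L2 is 0.03. XBP1 is the only coloured point in KMS11.

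Patterns across the 8 libraries, with each line centred on its own mean, were compared with those of 8862 genes of at least moderate level. The most alike genes were ZNF490 (Pearson r = 0.996) and FNDC3A (0.993) for SEC23A, PIGV (0.994) and LEFTY2 (0.993) for SEC31A, AREL1 (0.992) and GPT2 (0.991) for CREB3L2, and LITAF (0.994) and CAT (0.982) for SEC24B. For SAR1A they were GET1 (0.984) and LANCL2 (0.983), for SAR1B TSN (0.995) and CNOT10 (0.994), for SEC23B FBXO9 (0.981) and FGF2 (0.966), for SEC24A TOR1B (0.985) and RTCA (0.984), for SEC24C ZDHHC16 (0.980) and CSNK2B (0.978), and for SEC24D SLC50A1 (0.970) and TLE4 (0.891). Among the 10 genes themselves, SEC23A and SEC31A were most alike (0.98), then SEC31A and CREB3L2 (0.90) and SEC23A and CREB3L2 (0.88), and SEC24A and SEC24C were most unlike (-0.73). The points share libraries, scaling and treatment groups, and the values describe these 8 libraries.

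NSD2 and FGFR3, whose expression t(4;14) alters, were included as markers of the lines and differed between the lines in ethanol by -0.66 (adjusted p = 0.00016 in edgeR's test) and 2.78 (adjusted p = 6.4e-06) as KMS11 over H929. With fluvastatin NSD2 rose by 0.42 in H929 (adjusted p = 0.0068), a size close to those of SEC31A and SEC24B, and had -0.01 in KMS11 (adjusted p = 0.99).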

How the data were processed

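RNA-seq libraries of H929 and KMS11 cells were grouped by line and treatment from the labels. Per the methods and labels, the authors made stranded total RNA libraries after ribosomal RNA depletion, aligned reads to hg38 with STAR 2.5.2b and estimated counts with RSEM 1.3.0. The deposited expected counts carry no normalization, and the deposited TPM values are scaled by effective length. FPKM was not used. GENCODE release 44 gave names for 57392 of 58219 identifiers.

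Expected counts were rounded and fitted in R 4.3.3 with edgeR 4.0.16 (filterByExpr, minimum count 10, minimum total 15, TMM, quasi-likelihood F test, Benjamini-Hochberg adjustment over 13129 protein-coding genes, threshold 0.05). The standard error is the log2 fold change divided by the square root of F. Fits used all 8 libraries, either with a term for line or as 4 group means. CPM is edgeR's count scaled by TMM to a common library size. Balance of paralogues was tested by exact permutation within lines on log2 TPM ratios. The scripts were tested on simulated data with known changes. Alternatives used DESeq2 1.42.0, limma 3.58.1 on log2(TPM + 1), other scalings and filters, offsets for GC content and length, a replicate block and leaving out each library.

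The 10 genes and the lists were chosen with earlier results of these data known. Named genes were the 10 genes, every COPII partner, up to 2 genes with the largest rise and 2 with the largest fall past the threshold from each other list within each line, the 2 most alike genes per member, FGFR3 and NSD2. CREB3L4, CREB3, ATF6, ATF6B, CD38 and the other single cell type markers were named after their values were seen.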

Additional observations from a re-analysis of the deposited data

Results flagged for a closer look

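The responses of the lines differed for 13 of the genes named from the 10 and the lists. Values are KMS11 minus H929 on the log2 scale, at an adjusted p under 0.05 in edgeR's test of the difference itself. Among the coat genes this was SEC23A (-0.52). Among the COPII partners the differences were -1.16 for MIA2, 0.75 for PREB, -0.45 for MIA3 and -0.41 for PDCD6, a calcium-binding adaptor that passed in neither line alone. Among the genes of the wider pathway they were 0.99 for ERGIC1, 0.68 for TRAPPC2L, 0.53 for ARF1, -0.57 for BLZF1 and -0.60 for SPCS1. In the list that held CREB3L2's relatives they were -0.77 for ERN1, -0.66 for MBTPS2 and 0.38 for MBTPS1, the 2 proteases differing in opposite directions. Of all tested genes 23.2% differed in this way, beside 22 of the 122 list genes tested (18%) and 1 of the 10 coat genes and CREB3L2 (10%). The genes named from the lists were partly chosen as the largest changes within a line, so the number among them is not a share of a list.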

How the results depend on the processing

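The share of all genes called, in brackets for the main fit, moved as well. In H929 (42%) it was 26.9% at 0.01, 32.0% with limma, 54.8% with GC offsets and 61.2% with block and GC offsets. For both lines together (10.4%) it was 1.23% at 0.01, 19.5% with DESeq2, 22.6% with GC offsets and 1.2% with the block. For the difference (23.2%) it was 9.58% at 0.01, 24.2% with DESeq2, 33.3% with GC offsets and 42.9% with block and GC offsets. Counts of the 10 genes called are given first. For both lines together (1) the count was 0 at an adjusted p under 0.01, with limma on log2(TPM + 1), without a line term, and with the replicate block alone or with GC offsets, and 0 to 1 on leaving out a library. In H929 (4) it was 2 with limma, 3 at 0.01, 6 with GC offsets and with block and GC offsets (4 higher and 2 lower, SAR1A and SAR1B) and 5 with GC and length offsets, and SEC31A and CREB3L2 were called in all 21 alternatives, while SEC23A was called in 20 and SEC24B in 14. In KMS11 (0) it was 1, CREB3L2, with the block, alone or with GC offsets. For the difference (1) it was 0 at 0.01 and with limma, 4 with DESeq2, 3 with median-of-ratios scaling, a minimum count of 50, GC offsets or GC and length offsets, 4 with the block, 5 with block and GC offsets, and 0 to 2 on leaving out a library. Of the 122 list genes tested, the count for both lines together (8) was 0 at 0.01, 16 with DESeq2, 28 with GC offsets, 26 with GC and length offsets, 0 without a line term, 0 with the block, 2 with block and GC offsets, and 0 to 14 on leaving out a library. In H929 (52) it was 25, 34 and 81 at 0.01, with limma and with block and GC offsets, and 24 to 60 on leaving out a library. In KMS11 (1) it was 0 at 0.01, 6 with DESeq2, 2 with median-of-ratios scaling, 7 with no filter, 0 over all annotated genes, 12 with GC offsets, 14 with GC and length offsets, 11 with the block, 30 with block and GC offsets, 2 with only the 4 libraries compared, and 0 to 23 on leaving out a library. For the difference (22) it was 5 at 0.01, 10 with limma, 35 with GC and length offsets, 38 with the block, 47 with block and GC offsets, and 4 to 44 on leaving out a library. Between the lines in ethanol, SEC31A reversed to 0.11 with limma, and SEC24B to -0.02 and -0.04 with GC and with GC and length offsets. The causes were not tested. Changes in the 3 paralogue ratios kept their sign in every alternative run, and the GC offsets were run for the SAR1 and SEC23 ratios only. Deviations of same-numbered libraries correlated at 0.722 in H929 and at -0.015 in KMS11, so replicate numbers were not shown to pair the libraries in both lines. The main fits and the counts of libraries without overlap did not use the replicate numbers, in H929 either. With the block CREB3L2 had 0.6 over both lines (adjusted p = 0.08 in edgeR's test), which lost its call, and a difference of -0.49 (adjusted p = 0.017), which passed. With block and GC offsets these were 0.64 (0.075) and -0.65 (0.00011).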
